A study of Mus musculus with 6 samples.

Results

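The genes described here encode the core and the regulators of the pre-mRNA splicing machinery in 4T1 cells, a mouse mammary carcinoma line of BALB/C origin. They were chosen by name, not by any measured value: every protein-coding row whose symbol starts with Srsf, Sf3a, Sf3b, Rbm or Prpf followed by a digit, or with Hnrnp or Snrp. The rule found 100 of the 19179 genes listed, made up of 36 RBM, 20 hnRNP, 13 PRPF, 12 snRNP, 10 SR and 9 SF3 genes. Messenger RNA was sequenced from 6 libraries of clones grown for 14 days from wells that each received 1 cell. Of these libraries, 3 carry the tissue label breast cancer stem cell (stem-labelled clones) and 3 carry the label breast cancer cell (other clones). All are 4T1 cells in complete RPMI-1640 medium, and the labels name no treatment or gene change. The labels call the kinds SC and NSC. They do not say how a clone was assigned to its kind, nor whether the 10 clones of each kind went into every library or were divided over the batches of the 3 independent experiments.

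Introns are removed by the spliceosome, which is built from small nuclear ribonucleoproteins (snRNPs). Each U1, U2, U4 or U5 snRNP carries a ring of Sm proteins (the products of Snrpb, Snrpd1, Snrpd2, Snrpd3, Snrpe, Snrpf and Snrpg) around its RNA, and U2 holds the SF3A and SF3B complexes, which bring it to the branch site. PRPF proteins serve in the U4/U6.U5 tri-snRNP and in later steps. SR proteins mostly promote exon inclusion, hnRNP proteins often oppose it, and RBM is a name shared by proteins with an RNA-recognition domain and many different tasks.

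Values are RPKM, reads scaled by gene length and library total. The deposited gene length can exceed that of the coding transcript, with 4698 against 1152 bases for Rbm3 and 7461 against 7249 for Prpf8. Levels of different genes can therefore be compared only roughly. Stem-labelled libraries had 21196572 to 22838870 reads in genes, the other libraries 15357608 to 16830762. Per-library values below run from replicate 1 to 3 of the stem-labelled clones and then from replicate 1 to 3 of the other clones, and replicate numbers carry no order. Changes are differences of log2(RPKM + 1), stem-labelled minus other, with the standard error of a limma fit over all 10097 genes that had at least 1 RPKM in at least 3 libraries. On this scale the change of a low gene is understated. A gene was called higher or lower at a Benjamini-Hochberg adjusted p under 0.05 over all these genes (two-sided). With 3 libraries a group, an exact permutation test of a single gene could not go below p = 0.1. The labels name 3 independent experiments but do not tie them to libraries, so the p-values measure the spread between these libraries. In pooled cells, fewer cells making a transcript and less of it in each cell cannot be told apart.

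The libraries carried epithelial markers, though unevenly, and no marker of the stem cell label was examined. Of 6 epithelial markers, 1 was called higher (Cdh1, mean 68.9 against 16.0 RPKM) and 3 were called lower (Krt18, Krt7 and Krt19). Krt8 and Epcam were not called. Krt19 was at 0.0379 RPKM in stem-labelled replicate 1. The summed level, mostly Krt8 and Krt18, was 928 to 1432 RPKM in stem-labelled clones against 2052 to 3705. Among immune markers Ptprc and Csf1r were at or near 0 in every library while Cd68 was present, with the list summing to 12.3 to 39.9 against 6.09 to 29.3 RPKM. The endothelial list summed to at most 0.0742 and 0.0895 RPKM. In the fibroblast list Dcn, Col1a1 and Col1a2 were at or near 0 and the sum of 1.68 to 3.38 against 0.396 to 1.01 RPKM was nearly all Pdgfra, which was called higher. The part of these markers in the results on splicing genes was not tested.

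Among the 100 splicing genes, 87 had enough reads to be tested. In the stem-labelled clones 13 of these were called higher, 22 lower and 52 neither. That is 40.2% called, against 55.2% of all genes tested (29.9% higher and 25.4% lower). The groups did not overlap for 46 of the 87 (52.9%), 22 of them higher and 24 lower, against 63.5% of all genes tested (35.7% higher and 27.8% lower). The direction was uneven among families. The snRNP family had 9 of 10 tested members lower and none higher. SF3 genes had 4 of 9 lower and 1 higher. SR genes had 1 of 10 lower and none higher, the smallest share of calls among the 6 families. The hnRNP family had 2 of 20 higher and 3 lower, the PRPF family 3 of 13 higher and 1 lower, and the RBM family 7 of 25 higher and 4 lower.

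The median over tested snRNP genes was -2.19, while the medians of the other families lay between -0.15 (hnRNP) and 0.23 (PRPF), with -0.02 for SF3, 0.04 for SR and 0.22 for RBM. The median of all genes tested was 0.11. Both the median of all genes and the sign of the small family medians depend on the total to which values are scaled. Reads in genes were 0.658 to 0.757 times the library total implied by the deposited RPKM in the stem-labelled libraries and 1.23 to 1.53 times in the other libraries. Rescaling to the reads summed over genes moved the median of all genes to 0.86 and turned the calls over all genes from 3014 higher and 2563 lower to 5926 higher and 1245 lower, and those over members from 13 higher and 22 lower to 48 higher and 10 lower, with 71.0% of all genes then called (58.7% higher and 12.3% lower). Upper-quartile scaling gave a median of all genes of 0.32 and 24 members higher and 18 lower. The snRNP median stayed far below that of all genes under each, at -1.26 on rescaling and -1.94 with upper-quartile scaling, whereas the SF3 and hnRNP medians became positive under both.

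**Figure D1:**
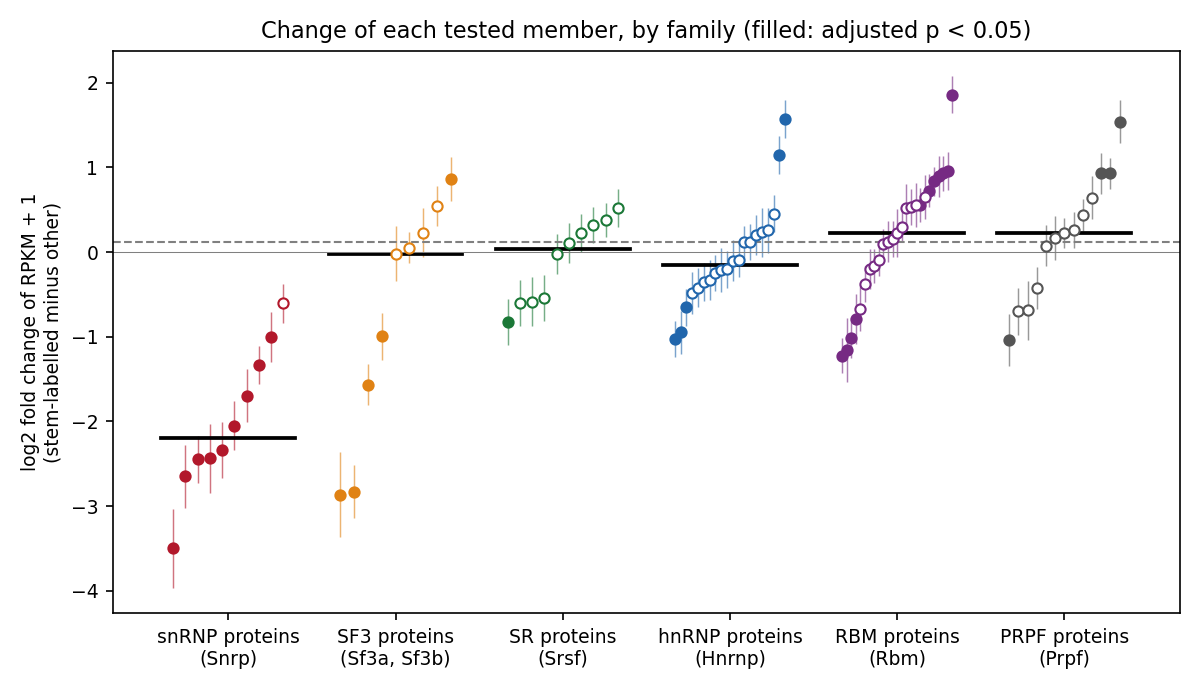
Each point is the log2 fold change of RPKM + 1 (vertical axis, stem-labelled minus other) of 1 tested gene with its standard error, sorted within its family (horizontal axis); filled points have a limma adjusted p under 0.05, black bars are family medians and the dashed line is the median of all genes tested (0.11). The snRNP family lies wholly below 0 with a median of -2.19, SF3 splits into a low and a high set, and the other medians lie close to the dashed line; on rescaling to summed reads the SF3 and hnRNP medians turn positive.

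All 6 tested Sm ring genes were lower in the stem-labelled clones. Snrpe (at chr1:133603871-133610291 on GRCm38, minus strand) had 52.3, 45.9 and 33.3 RPKM in the stem-labelled libraries and 634, 221 and 873 RPKM in the other libraries. The lowest other library was thus above every stem-labelled one, and the other libraries varied widely among themselves. The change was -3.50 ± 0.47 (SE, limma adjusted p = 0.000366). Of the 50-base stretches of Snrpe, 20.8% also occur in another gene, most of them in the processed pseudogene Snrpert, whose own row read 9.35 to 14.98 RPKM against 96.8 to 405 RPKM. How reads were divided between the gene and this copy is not stated, so both values are uncertain.

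Snrpg had 57.5, 57.0 and 39.0 RPKM against 283, 221 and 349 RPKM (change -2.45 ± 0.28, adjusted p = 0.000191). Snrpd1 had 57.1, 55.5 and 34.2 RPKM against 322, 187 and 471 RPKM (change -2.65 ± 0.37, adjusted p = 0.000425). Stem-labelled replicate 3 was the lowest library for both genes, as it was for Snrpe. The remaining ring genes Snrpd2 (mean 45.4 ± 13.0 against 188 ± 38 RPKM, SD, n = 3), Snrpd3 (30.0 ± 7.7 against 160 ± 67 RPKM) and Snrpb (132 ± 34 against 430 ± 103 RPKM) fell by 2.05, 2.33 and 1.70. These 3 were named after their values were seen. All 6 tested ring genes were called lower under each of the 18 fits run, including every fit that left out a library, the scalings and the corrections for length. The change nearest 0 among them was -0.76, for Snrpb on rescaling (adjusted p = 0.0413, the largest over the 18 fits; the smallest was 0.00076 for this gene). The last ring gene, Snrpf, had 4 reads in all 6 libraries together and was not tested.

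**Figure D2:**
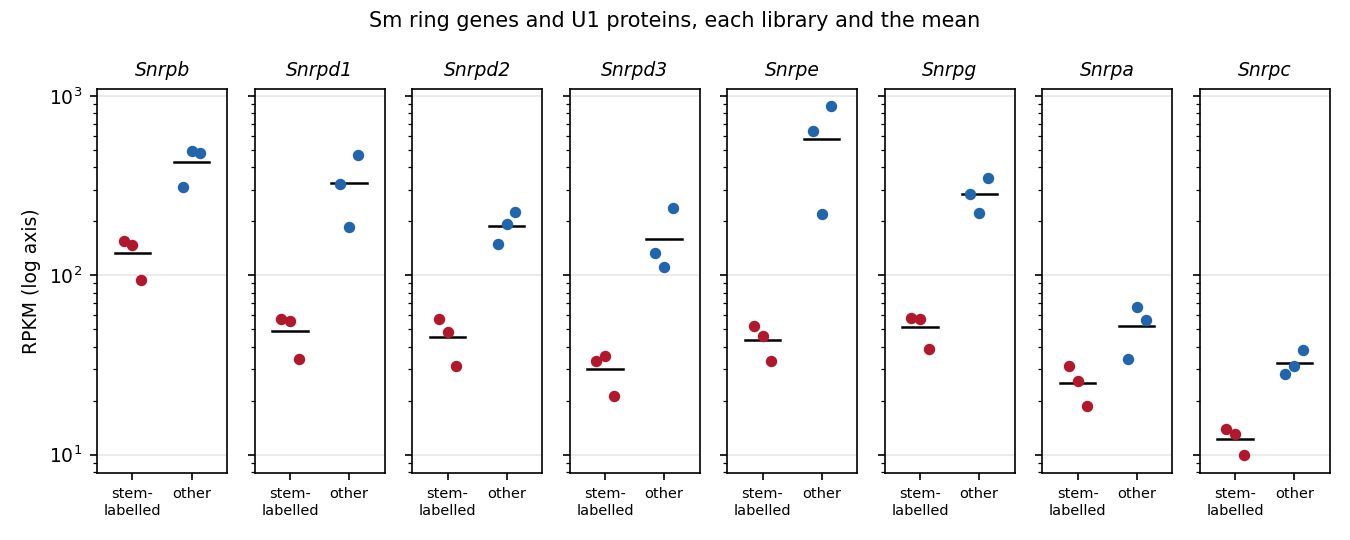
RPKM (vertical log axis) of the 6 tested Sm ring genes and of 2 U1 proteins in each stem-labelled (red) and other (blue) library, with the group mean as a black line. In every panel the 3 stem-labelled libraries lie below the 3 other libraries, with the widest gap for Snrpe and the narrowest for Snrpa; the calls of Snrpa and Snrpc were lost on rescaling.

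Of the 4 tested genes for proteins that bind a single snRNP, 3 were lower. Snrpb2, which encodes the U2-specific B'' protein, had 10.4, 11.6 and 6.79 RPKM against 44.3, 34.5 and 110 RPKM (change -2.44 ± 0.40, adjusted p = 0.000958). Its partner in U2, Snrpa1 (the A' protein), had 6.84, 5.96 and 7.24 RPKM against 8.89, 9.09 and 14.9 RPKM. The Snrpa1 groups did not overlap, but the change of -0.61 ± 0.23 was not called (adjusted p = 0.0515). The U1 proteins Snrpc (12.3 ± 2.1 against 32.5 ± 5.2 RPKM) and Snrpa (25.1 ± 6.3 against 52.2 ± 16.4 RPKM) fell by 1.34 and 1.004. The call of Snrpc was lost on rescaling (-0.44) and with the correction on transcript length (-0.48). That of Snrpa was lost on rescaling (-0.09), with no filter on low values, and without stem-labelled replicate 3 or other replicate 2, where the change over the fits with 1 library left out lay between -1.28 and -0.81 and the adjusted p reached 0.0722. Snrpb2, Snrpa1, Snrpc and Snrpa were also named after their values were seen. Snrpn, the imprinted relative of Snrpb, was below the threshold for testing with 0.260, 0.458 and 0.273 RPKM against 0.466, 0.558 and 0.414 RPKM.

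Within a library, the ring genes could be set against the regulators without any scaling between libraries. The median RPKM of the 6 tested ring genes was 1.41, 1.4999 and 0.878 times that of the 20 hnRNP genes in the stem-labelled libraries and 8.14, 6.20 and 14.2 times in the other libraries. Against the 10 SR genes the ratios were 1.75, 1.78 and 1.25 and then 12.0, 9.08 and 13.7. Neither pair of ranges overlapped. The ring genes had already been called lower in these same libraries, so these ratios are only a description. As shares of all reads in genes, the 12 snRNP genes took 0.119% ± 0.020 (SD, n = 3) in stem-labelled clones, against 0.283% ± 0.053 (SD, n = 3). The shares of the other families ran the opposite way, with 0.544% ± 0.049 against 0.306% ± 0.067 for hnRNP, 0.147% ± 0.012 against 0.0892% ± 0.0090 for SR, 0.194% ± 0.014 against 0.0833% ± 0.0061 for RBM and 0.162% ± 0.021 against 0.0577% ± 0.0119 for PRPF genes. In each of these 5 families the groups did not overlap, where an exact permutation test could not go below p = 0.1. SF3 shares were 0.198% ± 0.020 and 0.171% ± 0.017 and overlapped. Shares of reads weigh long transcripts more than short ones, unlike RPKM. They are on the scale of summed reads, where the median change of all genes was 0.86 and 58.7% were called higher. On that scale the family medians were near that of all genes, at 0.76 (hnRNP), 0.92 (SR), 1.005 (RBM) and 1.08 (PRPF).

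In the SF3 family the smallest SF3B subunits were lower, while the large ones were not called or higher. Sf3b5, a small subunit of SF3B, had 32.4, 27.6 and 15.5 RPKM against 218, 144 and 178 RPKM (change -2.83 ± 0.31, limma adjusted p = 0.000164). Sf3b6, the p14 subunit that sits at the branch-site adenosine (chr12:4817608-4827658 on GRCm38, plus strand), had 37.4, 31.9 and 22.3 RPKM against 219, 102 and 505 RPKM (change -2.87 ± 0.50, adjusted p = 0.00129). For both genes all 3 stem-labelled libraries lay far below the other libraries. Sf3b1, the largest subunit and the one most often mutated in blood cancers, had 8.16, 7.22 and 18.3 RPKM against 11.2, 11.9 and 8.60 RPKM. Its groups overlapped, stem-labelled replicate 3 stood above the other 5 libraries, and the change of -0.02 ± 0.32 was not called and ran from -0.53 to 0.84 over the alternatives.

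The ratio of Sf3b5 to Sf3b1 inside a library was 3.96, 3.82 and 0.849 against 19.4, 12.1 and 20.7, and that of Sf3b6 to Sf3b1 was 4.59, 4.42 and 1.22 against 19.5, 8.59 and 58.7. Set against Sf3b3, another large subunit, which was not called (0.23 ± 0.29), the ratio of Sf3b5 was 0.457, 0.479 and 0.202 against 4.83, 1.65 and 3.63. The ratios of the 3 stem-labelled libraries lay below those of the 3 other libraries with either reference. Sf3b5 and Sf3b6 were themselves lower in all stem-labelled libraries, so these ratios are only a description. Sf3b2, the partner of Sf3b4 in SF3B, was the single SF3 gene called higher, with 159, 119 and 124 RPKM against 60.0, 92.1 and 69.1 RPKM (change 0.86 ± 0.26, adjusted p = 0.0187). Its call was lost without stem-labelled replicate 1 (0.73), other replicate 1 (0.73) or other replicate 3 (0.83), with an adjusted p of up to 0.0775 there and from 0.00016 to 0.0775 over all alternatives. Sf3b4 itself fell by 0.997 (62.2, 70.4 and 51.9 against 87.4, 147 and 144 RPKM, adjusted p = 0.0132). Nearly all of that difference went on rescaling (-0.07), and with 49.3% of its 50-base stretches shared with other genes the value is uncertain.

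SF3A, the other complex, has 3 subunits. Sf3a2 had 46.9, 45.5 and 33.03 RPKM against 108, 137 and 129 RPKM (change -1.56 ± 0.24, adjusted p = 0.0007), and it overlaps an exon of Plekhj1 on the opposite strand. Sf3a3 overlapped, at 17.4, 16.0 and 16.5 RPKM against 15.6, 15.6 and 16.9 RPKM (0.05 ± 0.19, adjusted p = 0.826). Sf3a1 had 24.1 ± 3.1 against 16.5 ± 4.1 RPKM and was not called (0.54 ± 0.24, adjusted p = 0.0794). The median change of the 9 SF3 genes rests on such a spread that it moved from -0.02 to -0.40 without stem-labelled replicate 3. Sf3a1, Sf3a3, Sf3b3 and Sf3b4 were named after their values were seen.

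**Figure D3:**
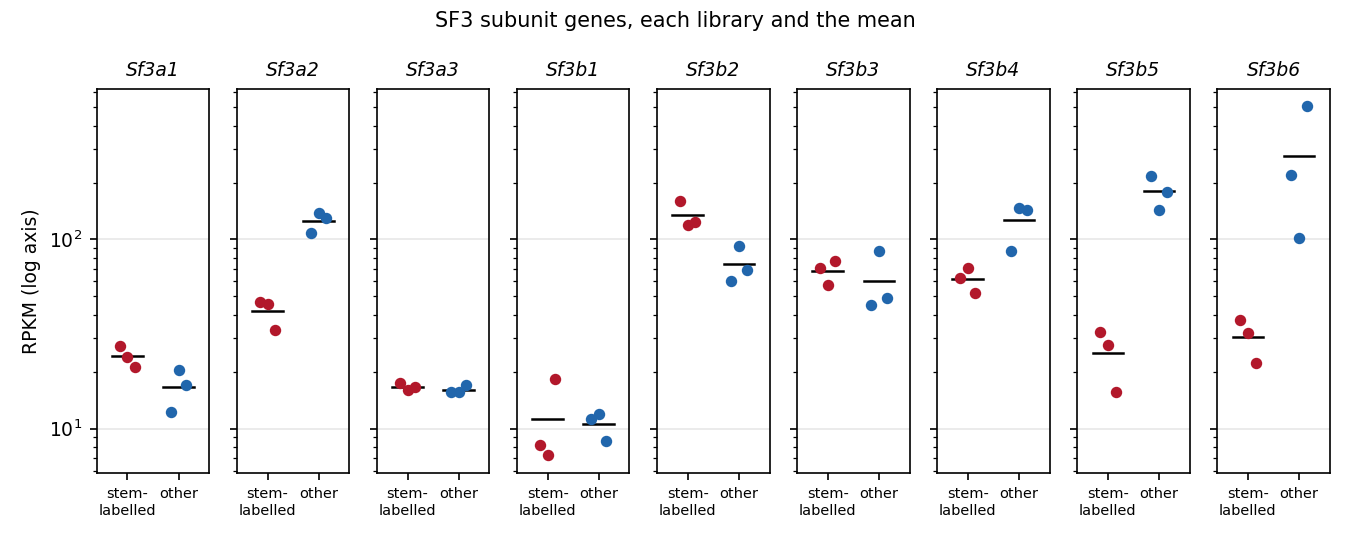
RPKM (vertical log axis) of the 9 SF3 genes in each stem-labelled (red) and other (blue) library, with the group mean as a black line. Sf3b5, Sf3b6, Sf3a2 and Sf3b4 are lower in all 3 stem-labelled libraries and Sf3b2 and Sf3a1 higher in all 3, while Sf3a3, Sf3b1 and Sf3b3 overlap; on rescaling to summed reads the difference of Sf3b4 shrinks to -0.07.

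Of the 13 PRPF genes, 3 were higher and 1 lower. Prpf8, the large U5 scaffold around the catalytic RNA of the spliceosome (chr11:75486816-75509449 on GRCm38, plus strand), had 57.3, 54.7 and 70.7 RPKM against 14.7, 25.5 and 21.9 RPKM. The lowest stem-labelled library was above the highest other library by a wide margin, and the change was 1.54 ± 0.25 (limma adjusted p = 0.00097). It was called in all alternatives except the correction on coding transcript length (0.42). Prpf6, which bridges U5 and U4/U6, had 21.3, 26.5 and 22.0 RPKM against 8.81, 15.3 and 11.8 RPKM (0.93 ± 0.24, adjusted p = 0.00893). Its call was lost with each correction for length (0.38 to 0.50). Prpf18, a factor of the later splicing step, was low but separated, with 4.41, 4.96 and 5.66 RPKM against 2.16, 2.33 and 1.93 RPKM (0.93 ± 0.18, adjusted p = 0.00229).

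Prpf39, a U1-associated protein named after its values were seen, was the single PRPF gene called lower. It had 0.447, 0.644 and 1.47 RPKM against 3.36, 1.37 and 3.95 RPKM, and its groups overlapped (-1.04 ± 0.31, adjusted p = 0.0179). Without stem-labelled replicate 1 or 2 or other replicate 1 it was not called, with changes between -1.36 and -0.83 over the fits without 1 library and an adjusted p of up to 0.0663. Its call was also lost with no filter, on rescaling (-0.47) and with the correction for length and GC content (-0.32). Prpf18 was called in each of the 16 alternatives that tested it. The 9 PRPF genes not called ran from -0.70 to 0.64 and included the tri-snRNP proteins Prpf3, Prpf4 and Prpf31 and the ubiquitin ligase Prpf19.

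U5 and Sm transcripts were also compared inside each library. Prpf8 stood at 1.72, 1.54 and 3.34 times Snrpd3 in the stem-labelled libraries and at 0.111, 0.230 and 0.0927 times in the other libraries. In the stem-labelled clones the long U5 scaffold gene had the higher RPKM of the pair, and in the other clones the short Sm gene did. Prpf8 was higher and Snrpd3 lower in all stem-labelled libraries, so their ratio had to separate the groups and is only a description. Prpf8 has 7005 coding bases and Snrpd3 at most 400. Among tested genes, 63.1% of those with over 3200 coding bases were called higher and 66.8% of those with at most 400 lower.

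Of the 10 SR genes, 9 were not called. Srsf1, the founding member, had 21.2, 17.3 and 26.1 RPKM against 17.02, 13.4 and 13.3 RPKM. The groups just failed to overlap, and the change of 0.52 ± 0.23 was not called (adjusted p = 0.0736). It was called higher with upper-quartile scaling (0.77), on rescaling (1.41), and with the corrections on gene length (0.59) and transcript length (1.66). Srsf2 overlapped at 35.6, 26.6 and 23.5 against 23.3, 21.7 and 27.1 RPKM (0.22 ± 0.23, adjusted p = 0.425). Srsf3 had 35.3, 31.6 and 35.6 RPKM against 44.6, 38.6 and 80.5 RPKM, with other replicate 3 apart from the rest (-0.59 ± 0.29, adjusted p = 0.11). Srsf3 took the opposite sign on rescaling (0.33).

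Srsf9 was the only SR gene called, with 95.8, 81.6 and 66.3 RPKM against 114, 177 and 146 RPKM (-0.83 ± 0.27, limma adjusted p = 0.0253). The call was lost without stem-labelled replicate 2 (-0.84), stem-labelled replicate 3 (-0.69), other replicate 2 (-0.68) or other replicate 3 (-0.81), with each correction for length and with upper-quartile scaling, and the change was 0.11 on rescaling. Over all alternatives its adjusted p ran from 0.007 to 0.741. The 9 SR genes not called ran from -0.60 to 0.52, 5 of them above 0. On rescaling 6 of the 10 SR genes were called higher, where 58.7% of all genes were.

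Most hnRNP genes were abundant, and 15 of the 20 were not called. Hnrnpa2b1 had 80.4, 73.8 and 65.8 RPKM against 81.2, 94.0 and 63.6 RPKM. Its groups overlapped and the change was -0.10 ± 0.24 (adjusted p = 0.731), with a positive sign on rescaling (0.83), with upper-quartile scaling and without other replicate 2 (0.02). Those not called, among them Hnrnpc, Hnrnpk, Hnrnpl and Hnrnpm, ran from -0.48 to 0.45. Hnrnpul1 was higher, with 28.0, 23.4 and 26.5 RPKM against 7.60, 10.5 and 6.44 RPKM (chr7:25721165-25754757 on GRCm38, minus strand). All stem-labelled libraries were above all other libraries, the change was 1.58 ± 0.22 (adjusted p = 0.000472), and the call held in every alternative.

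Its paralog Hnrnpul2 was also higher, from 14.0, 18.6 and 14.8 RPKM in the other libraries to 42.5, 29.4 and 36.9 RPKM in the stem-labelled ones (1.15 ± 0.23, adjusted p = 0.0024). With the 2 corrections for length its change was 0.41 and 0.18 and was not called. The related Hnrnpu was lower, with 2.06, 1.70 and 2.51 RPKM against 6.44, 4.04 and 5.58 RPKM (-1.03 ± 0.21, adjusted p = 0.00313). Hnrnpu encodes a chromatin-bound scaffold protein with a DNA-binding SAP domain. Its change was -1.24 after the correction for length and GC content and -0.31, not called, on rescaling. It lies outside the naming rule, having a mean under 5 RPKM, and overlaps an exon of Cox20 on the opposite strand.

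Hnrnpa1 had the highest mean RPKM of the hnRNP genes. Its values were 193, 163 and 186 RPKM against 331, 402 and 319 RPKM (-0.95 ± 0.26, limma adjusted p = 0.0113). The groups were well apart, but 28.3% of its 50-base stretches occur in other genes and the change was -0.01 on rescaling. The Hnrnpa1 call was also lost without stem-labelled replicate 2 (-0.88) and with the correction for length and GC content. Over all alternatives its adjusted p ran from 0.0029 to 0.976. Hnrnph1 had 17.2, 18.3 and 23.7 RPKM against 33.1, 34.0 and 27.2 RPKM (-0.65 ± 0.22, adjusted p = 0.0291). This call was lost in 8 of 17 alternatives and the sign turned in 2 more (0.25 on rescaling and 0.38 with the correction on transcript length). Leaving out stem-labelled replicate 1 or 2, or other replicate 1 or 2, each ended it, with changes between -0.61 and -0.56.

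RBM genes moved in both directions. Rbm15b, a paralog of Rbm15 that helps to bring the N6-methyladenosine writer to RNA (chr9:106880918-106887428 on GRCm38, minus strand), had 25.6, 18.4 and 19.3 RPKM against 4.43, 4.69 and 6.10 RPKM. The stem-labelled libraries were all above the other libraries, the change was 1.86 ± 0.22 (adjusted p = 0.000208), the largest increase of any member, and the call held in all 17 alternatives. It overlaps an exon of Dcaf1 on the opposite strand. Rbm10, an X-linked regulator of exon skipping, had 23.3, 20.3 and 17.1 RPKM against 7.73, 11.7 and 10.5 RPKM (0.96 ± 0.23, adjusted p = 0.00582). Rbm45 had 16.6, 17.1 and 16.3 RPKM against 8.62, 11.3 and 9.37 RPKM (0.72 ± 0.19, adjusted p = 0.0111). Both were called in all alternatives, although 41.0% of the 50-base stretches of Rbm10 occur elsewhere too and it overlaps Ndufb11.

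A further 4 RBM genes, named after their values were seen, were called higher at low levels. They were Rbm5 (4.45 ± 0.92 against 1.87 ± 0.47 RPKM), a relative of Rbm10, Rbm33 (3.72 ± 1.44 against 1.47 ± 0.17 RPKM), Rbm47 (1.97 ± 0.31 against 0.655 ± 0.071 RPKM) and Rbm43 (6.47 ± 1.30 against 4.03 ± 0.24 RPKM). Their changes were 0.93, 0.89, 0.84 and 0.56. Rbm47 was under 1 RPKM in the libraries of the other clones, so it passed the filter for testing only through the stem-labelled libraries. Rbm5 (0.29) and Rbm47 (0.056) were not called after the correction for length and GC content. Rbm33 had the opposite sign after both corrections for length (-0.18 and -0.33), and Rbm43 was called in 1 of the 6 fits that left out a library, with changes between 0.42 and 0.66 and an adjusted p of up to 0.116.

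Among RBM genes called lower, Rbm38, whose product binds AU-rich RNA, had 6.74, 6.63 and 4.51 RPKM against 15.7, 15.2 and 14.3 RPKM (-1.22 ± 0.21, limma adjusted p = 0.00113). Rbm8a, which encodes the Y14 protein of the exon junction complex, had 23.2, 31.9 and 23.98 RPKM against 43.7, 57.4 and 62.0 RPKM (-1.02 ± 0.24, adjusted p = 0.00559). Both were separated in all libraries, and neither was called on rescaling (-0.38 and -0.10), nor was Rbm38 with the correction on transcript length (-0.27). Rbm7, of the nuclear exosome targeting complex, had 2.89, 5.28 and 6.17 RPKM against 9.71, 7.11 and 21.3 RPKM (-1.16 ± 0.38, adjusted p = 0.0263) and was lost without stem-labelled replicate 1 (-0.89) or other replicate 3 (-0.74). The Rbm7 call was also lost with no filter, with upper-quartile scaling (-0.93), on rescaling (-0.33), and with the corrections on gene length (-0.36) and transcript length (-0.77). Rbm39, the splicing factor degraded by aryl sulfonamide drugs, overlapped at 4.30, 6.80 and 10.4 against 12.6, 9.88 and 15.5 RPKM (-0.79 ± 0.30, adjusted p = 0.0467). Its call was lost without stem-labelled replicate 1 (-0.51) or 2 (-0.79), or other replicate 1 (-0.78) or 3 (-0.64), with no filter and with upper-quartile scaling, and the change was 0.06 on rescaling. The cold-inducible Rbm3 had the highest mean RPKM of the RBM genes. It had 120, 97.04 and 71.7 RPKM against 66.3, 51.5 and 81.2 RPKM and was not called (0.52 ± 0.28, limma adjusted p = 0.139).

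Transcript length moved with these results. The median coding length was 462 bases in the snRNP family, 772.5 in SR, 1303.5 in hnRNP, 1503 in SF3, 1995 in PRPF and 2007 in RBM genes. Across the 87 tested members, Spearman's rho between change and coding length was 0.554, and it was 0.396 over the 77 outside the snRNP family and 0.435 over 9310 tested protein-coding genes. These points come from the same 6 libraries and are a description. Of the 491 tested genes with at most 400 coding bases, 66.8% were called lower and their median change was -1.34. The 7 members of that size (Sf3b5, Sf3b6, Snrpd1, Snrpd2, Snrpd3, Snrpe and Snrpg) were all lower, with a median of -2.65. At the other end, 63.1% of the 1036 genes with over 3200 coding bases were called higher, as were 2 of 5 members of that size (Prpf8 and Rbm33).

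After a per-library correction for gene length and GC content, 16 of the 22 lower and 8 of the 13 higher members kept their call. The share of all genes called was then 47.9% (25.9% higher and 22.0% lower). All 10 tested snRNP genes were lower after it, with a median of -1.80 against 0.07 for all genes tested and -0.54 for genes with at most 400 coding bases, of which 45.2% were still called lower. With coding transcript length in place of gene length 8 of the 10 were lower, the median was -1.64 and the highest change was 0.02. Sf3b5 (-3.09) and Sf3b6 (-1.62) remained lower, while Sf3b4 (-0.36) and Hnrnph1 (-0.03) did not. The part of length in the differences between the groups was not tested beyond these 2 corrections. The share of all genes called was 45.9% with coding transcript length in place of gene length and 54.2% in a limma-voom fit on recovered reads. Across the test as first described, both corrections, rescaling and the voom fit, 16 members had the same call. Of these, 10 were lower (Snrpb, Snrpb2, Snrpd1, Snrpd2, Snrpd3, Snrpe, Snrpg, Sf3a2, Sf3b5 and Sf3b6) and 6 higher (Sf3b2, Rbm10, Rbm15b, Rbm45, Prpf18 and Hnrnpul1).

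**Figure D4:**
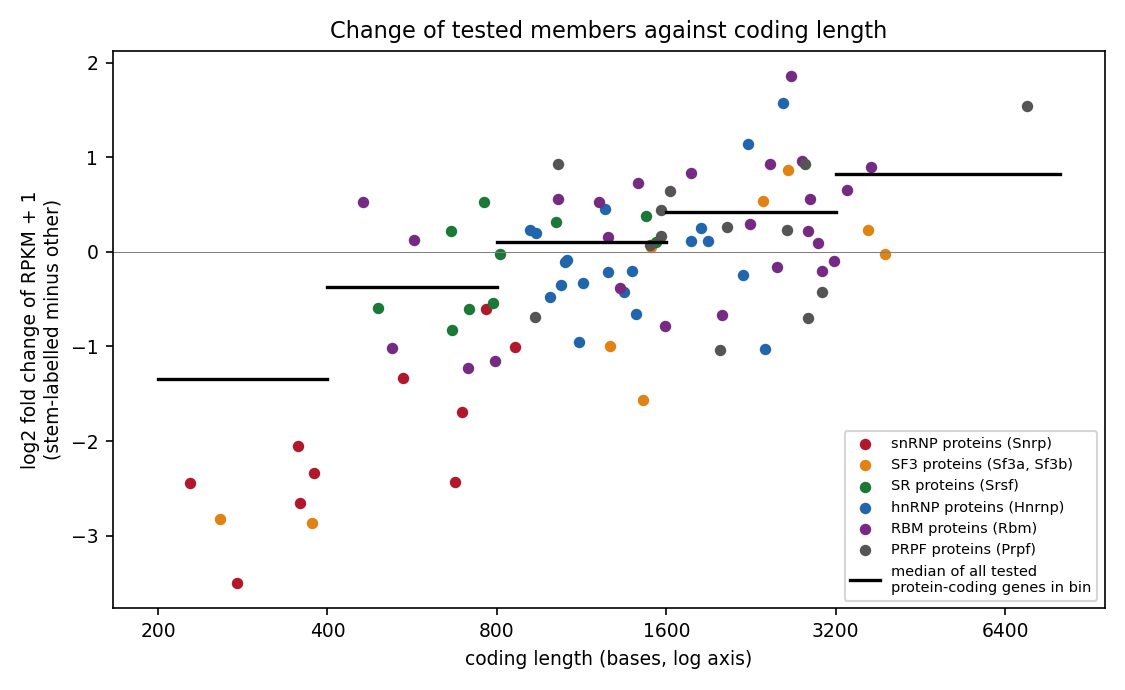
Log2 fold change of RPKM + 1 (vertical axis, stem-labelled minus other) of the 87 tested members against their coding length in bases (horizontal log axis), coloured by family, with black bars for the median of all tested protein-coding genes in each length range. Members at most 400 bases long all lie at or below -2.05, under the median of -1.34 for genes of that size, and Prpf8 is the longest member at 7005 bases.

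Promoter sequence was examined for members that moved in opposite directions. RefSeq start sites on GRCm38.p6 were matched for 83 of the 100 members. Shown for 2 lower and 2 higher genes are the bases before the start site, 5′ to 3′ on the gene's strand and cut where the deposited gene begins, with matches to CCGGAAG (an ETS-type motif), CCAAT and AAGATGGC (a YY1-type motif) on either strand in capitals. Their positions are chr2:143062819-143063038 (plus strand) for Snrpb2, chr12:4817358-4817607 (plus) for Sf3b6, chr11:75486527-75486776 (plus) for Prpf8 and chr7:25754760-25755009 (minus) for Hnrnpul1.
Snrpb2: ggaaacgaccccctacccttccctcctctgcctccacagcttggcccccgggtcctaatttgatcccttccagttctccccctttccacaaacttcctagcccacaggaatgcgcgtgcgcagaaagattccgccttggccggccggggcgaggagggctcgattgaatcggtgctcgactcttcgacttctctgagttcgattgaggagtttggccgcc
Sf3b6: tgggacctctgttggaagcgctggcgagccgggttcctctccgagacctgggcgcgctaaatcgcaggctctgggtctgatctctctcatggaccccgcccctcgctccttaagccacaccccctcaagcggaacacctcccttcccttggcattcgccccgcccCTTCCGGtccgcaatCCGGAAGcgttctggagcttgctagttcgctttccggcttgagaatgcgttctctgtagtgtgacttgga
Prpf8: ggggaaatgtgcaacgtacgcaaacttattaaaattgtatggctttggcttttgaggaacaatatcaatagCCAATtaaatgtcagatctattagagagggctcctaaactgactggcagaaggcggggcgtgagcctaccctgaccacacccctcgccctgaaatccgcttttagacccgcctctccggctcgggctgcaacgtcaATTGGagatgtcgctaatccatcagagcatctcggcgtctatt
Hnrnpul1: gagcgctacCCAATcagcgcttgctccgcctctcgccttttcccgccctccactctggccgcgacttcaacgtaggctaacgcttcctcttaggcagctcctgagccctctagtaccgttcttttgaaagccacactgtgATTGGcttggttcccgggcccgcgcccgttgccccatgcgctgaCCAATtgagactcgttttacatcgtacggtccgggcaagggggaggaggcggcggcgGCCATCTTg
Sf3b6 held 2 ETS-type matches on opposite strands, Prpf8 held 2 CCAAT matches and Hnrnpul1 held 3 CCAAT matches and 1 YY1-type match close to its start, while Snrpb2 held none of these letters in its window. The searched motifs do not overlap one another in these 4 windows. Over the 250 bases before the start, CCGGAAG was found in 26 of 96 promoters of tested members (27.1%), in 14.7% of the 9394 promoters of all tested genes and in 6.91% of all 32851 promoters in the table. It was found in 5 of 23 promoters of members called lower (21.7%) and in 4 of 15 of members called higher (26.7%). CCAAT was found in 42.7% of member promoters and 35.8% of those of tested genes. AAGATGGC was rare in both (2.08% and 2.10%), and TATAAA was found in 7.29% and 5.92%. A match is a string of letters and no evidence of binding.

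Other spliceosome genes were described through 7 lists. Of 129 tested, 24 were called higher and 22 lower, with a median change of -0.01. Over all genes tested 29.9% were called higher and 25.4% lower, and the median was 0.11. Every list count below stands beside these shares. In the list of other U1, tri-snRNP and Lsm proteins 4 of 25 were higher and 8 lower. The Lsm genes, whose products form the ring on U6, accounted for 5 of those 8, with none of the 7 tested higher and a median of -1.89. Their coding lengths ran from 240 (Lsm6) to 414 bases (Lsm4). Of all tested genes with at most 400 coding bases, 66.8% were called lower, with a median of -1.34. Lsm5 had 27.2, 21.8 and 17.5 RPKM against 381, 141 and 610 RPKM (-3.82 ± 0.47, limma adjusted p = 0.000263), with low, even stem-labelled libraries and high, scattered other libraries, as for Snrpe. After the correction for length and GC content the change of Lsm5 was -0.98 and still called. Lsm2 (-2.002) and Lsm3 (-2.72) also kept their calls, and Lsm6 (-0.65), not called before the correction, was called lower. Lsm4 (-0.47) and Lsm7 (-0.43) lost their calls, and Lsm8 (-0.37) was not called before or after. These Lsm genes other than Lsm5 were named after their values were seen. Snrnp25, of the minor U11/U12 snRNP, had 30.9, 27.9 and 20.1 RPKM against 144, 130 and 130 RPKM (-2.33 ± 0.24, adjusted p = 0.000136). Snrnp200, the helicase that works beside Prpf8, was named after its values were seen. It had 23.4, 21.8 and 28.0 RPKM against 8.72, 11.1 and 11.04 RPKM (1.17 ± 0.21, adjusted p = 0.00136), and 0.27, not called, after the same correction (adjusted p = 0.225). The change of Snrnp25 was then -1.19.

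Beside the SF3 genes, 1 of 11 other U2 and branch-site factors was higher and 2 were lower. Phf5a, a small SF3B subunit outside the name rule, had 30.1, 28.8 and 19.7 RPKM against 55.6, 92.6 and 97.1 RPKM (-1.59 ± 0.29, limma adjusted p = 0.00151). Unlike those of Sf3b5 and Sf3b6, its call was lost after the correction for length and GC content (-0.63, adjusted p = 0.0798) and on rescaling (-0.67, adjusted p = 0.0517). The helicase Ddx42 had 16.5, 13.2 and 19.3 RPKM against 7.72, 7.91 and 6.06 RPKM (1.07 ± 0.22, adjusted p = 0.00272). Of 26 activation and step factors 2 were higher, Cwc25 (1.07) and Dhx8 (1.03, but 0.44 and not called after the correction for length and GC content), and 2 were lower. The 15 tested snRNP assembly genes, only some of which load the Sm ring, were mostly not called. Of them 1 was higher (Coil, 0.71) and 2 were lower (Gemin7, -0.98, and 1 more), with a median of -0.02. After the correction for length and GC content Coil (0.31) and Gemin7 (0.11, of opposite sign) were not called, and Gemin7 had -0.06 on rescaling.

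SR-related proteins and the exon junction complex had 9 of 20 tested genes higher and 4 lower, and 7 higher and 5 lower after the correction for length and GC content. Over all genes tested 29.9% were higher and 25.4% lower, and 25.9% and 22.0% after it. Srrm2, a large scaffold of nuclear speckles, had 25.2, 26.1 and 36.1 RPKM against 6.56, 5.93 and 5.41 RPKM (2.10 ± 0.21, limma adjusted p = 0.000138). Magohb, a partner of Rbm8a in the exon junction complex, had 3.96, 3.35 and 3.94 RPKM against 22.8, 14.5 and 55.2 RPKM (-2.53 ± 0.40, adjusted p = 0.000792). The 2 genes differed in direction as Snrpd3 and Prpf8 did.

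Kinases that phosphorylate SR proteins split by gene. Of 7 tested, 4 were higher, with Dyrk1a at 4.28, 3.46 and 6.16 RPKM against 1.47, 1.25 and 0.951 RPKM (1.32 ± 0.22, limma adjusted p = 0.00106), and 2 were lower. Clk1 had 0.971, 1.57 and 1.99 RPKM against 9.21, 3.72 and 12.7 RPKM (-1.81 ± 0.36, adjusted p = 0.00255), and its change was -1.72 after the correction for length and GC content. None of the 4 higher kinases was called after that correction, Dyrk1a having 0.43 (adjusted p = 0.0668), and Clk1 was the only one of the 2 lower kinases still called. Among 25 other splicing regulators 3 were higher and 2 lower. Rbfox2, a regulator of alternative exons, had 10.8, 13.0 and 14.1 RPKM against 4.49, 4.83 and 3.87 RPKM (1.33 ± 0.20, adjusted p = 0.000543). Matr3, a nuclear matrix RNA-binding protein, had 1.26, 1.85 and 3.71 RPKM against 14.4, 6.55 and 13.1 RPKM (-1.92 ± 0.34, adjusted p = 0.0014). Its change was -1.79 after the correction for length and GC content, and that of Rbfox2 was 0.48 (adjusted p = 0.0431).

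The 13 members that were not tested were 11 RBM genes, Snrpf and Snrpn. Their highest value in any library was 1.21 RPKM (Rbm12b2). Some lie largely under other annotated genes. Exons of other genes cover 85.4% of the exon bases of Snrpf, 75.4% of those of Rbm42 and 60.5% of those of Rbm4, and these genes had 4, 6 and 173 reads in all libraries together. How the counting treated reads in overlapping exons is not stated, so these values are uncertain. Among the tested members, 9 share over 20% of their 50-base stretches with another gene and 29 overlap an exon on the opposite strand, and 53 have neither. In those 53, 9 were called higher and 13 lower, and the median of the 7 snRNP genes among them was -2.05.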

How the data were processed

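The authors deposited RPKM values in 1 file per library, each row with an Ensembl identifier, coordinates and a length. The submitters' processing notes name Bowtie2 2.0.6, TopHat2 2.0.9 and mm9 without a role, and the counting program and its use of strand are not given in the sources used here. Of the identifiers 99.6% are in GENCODE M21, and 80.6% of those have the same start and end on GRCm38, so coordinates are given on GRCm38. RPKM times gene length gave whole multiples of 1 step per library for 100% of values (tolerance 0.01), which returned reads. For a length of 1 kilobase, 1 read corresponds to 0.0311 to 0.0993 RPKM. Groups come from the tissue label, replicate numbers from the titles. No counting intervals are given, because comparisons rest on the spread between libraries.

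The test was limma 3.58.1 (R 4.3.3) on log2(RPKM + 1), pseudocount 1, with a variance trend, for genes with at least 1 RPKM in at least 3 libraries (10097 tested, 9082 removed), and it was tested on simulated data. The alternatives were a replicate block, leaving out each library, a pseudocount of 0.1, no filter, keeping genes whose mean RPKM was at least 5, upper-quartile scaling, rescaling to summed reads, a per-library correction with natural splines (5 degrees of freedom) of log2 gene length and GC content, that correction with the block, limma without the trend, limma-voom on recovered reads, and leaving out members with shared (over 20% of 50-base stretches) or opposite-strand sequence. A correction on coding transcript length was added after seeing the data.

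Members and lists were chosen with earlier results of these data known. The text names, in each family, up to 3 called members with the largest increase and up to 3 with the largest decrease among separated genes with a mean of at least 5 RPKM, 11 members fixed beforehand, and up to 2 genes of each other list with the smallest p. Others are marked as named after their values were seen. Sf3b14, Zrsr1, Prp4k and Khdrbs3 had no row under those names. Promoters came from RefSeq. Protein sequences were not used here.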

Additional observations from a re-analysis of the deposited data

How the results depend on the processing

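Of the 35 called members, 15 kept their call in every alternative that tested them (10 lower and 5 higher), and 26 kept it in all 6 fits without 1 library. Over those fits, members called higher numbered 11 to 14 and members called lower 17 to 24. Deviations from the group mean had correlations from -0.12 to 0.03 between libraries with the same replicate number. With 3 libraries a group, this cannot tell whether such libraries came from the same experiment. The fit with the replicate number as a block called 12 members higher and 21 lower. It lost Rbm43 (limma adjusted p = 0.0694), Srsf9 (0.0501) and Hnrnph1 (0.0627). The only other fit with this block also held the length and GC correction. Rescaling to summed reads gave 5926 genes higher and 1245 lower and 48 members higher and 10 lower, with family medians of 0.92 (SR), 0.76 (hnRNP), 0.84 (SF3), 1.005 (RBM), 1.08 (PRPF) and -1.26 (snRNP). Upper-quartile scaling gave 24 members higher and medians of 0.29 (SR), 0.10 (hnRNP) and 0.44 (RBM). The filter of mean RPKM at least 5 left 1405 genes and 8 members higher, since fewer genes were tested. With the length and GC correction the medians were -0.36 (SF3), -0.18 (RBM), -0.24 (PRPF) and -1.80 (snRNP), the same with the block added, which called 8 members higher. The correction on coding transcript length gave 0.20 (hnRNP), -0.57 (SF3), -0.074 (RBM), -0.18 (PRPF) and -1.64 (snRNP). Leaving out members with shared or opposite-strand sequence gave 13 lower (24.5%, against 25.4% of all genes tested) and medians of -0.55 (SR) and 0.11 (hnRNP), since fewer members were counted. The SF3 median ran from -0.40 to 0.079 without 1 library. Apart from these constructions, the cause was not tested. Of 459 values for 27 named members, 384 kept their call, 49 lost it, 9 gained it and 17 changed sign. The sign changed for Hnrnpa2b1 (-0.25 to 0.024 without 1 library, 0.15 upper-quartile, 0.83 rescaled, 0.21 transcript length), Hnrnph1 (0.25 rescaled, 0.38 transcript length), Rbm39 (0.063 rescaled), Sf3b1 (-0.40 to 0.21 without 1 library, 0.22 upper-quartile, 0.84 rescaled), Srsf2 (-0.057 with the length and GC correction, also with the block), Srsf3 (0.33 rescaled) and Srsf9 (0.11 rescaled). Depth limits low genes most: 1 read per kilobase is worth up to 0.0993 RPKM in the other libraries.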

Other observations

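Processed pseudogenes of members were read beside their parents. Hnrnpa1l2-ps had at most 4 reads in any library, whereas Snrpert, the copy of Snrpe, had 119, 91 and 84 reads in the stem-labelled libraries and 1181, 336 and 1137 in the other libraries. Its order of libraries within the other group followed that of Snrpe in that replicate 2 was the lowest of the 3. Rbm3os, the antisense neighbour of Rbm3, had 2 to 14 reads, so its row holds little signal beside the abundant Rbm3.

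Genes that share exons with untested members were low as well. Ccdc38, which overlaps Snrpf, had 1 to 13 reads, 4933408J17Rik had 0 to 3 reads, and Gm21992, which overlaps Rbm4, had 1 to 8 reads in any library.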
